A study of Mus musculus with 503 samples.

Results

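Small leucine-rich proteoglycans (SLRPs) are secreted matrix proteins with a short core of leucine-rich repeats, most of which carry glycosaminoglycan chains. They bind collagen fibrils and set their spacing and thickness, and several also bind growth factors and cell-surface receptors. In fibrous tissue they are products of fibroblasts and of the mural cells of vessels. Decorin (*Dcn*), biglycan (*Bgn*) and asporin (*Aspn*) form class I, in which decorin and biglycan carry chondroitin or dermatan sulfate. Lumican (*Lum*), fibromodulin (*Fmod*), *Prelp* and osteomodulin (*Omd*) form class II, some of which carry keratan sulfate, and osteoglycin (*Ogn*) belongs to class III. These 8 genes were taken by symbol from the deposited count matrix, and all were found among its 56701 gene rows.

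The counts come from perivascular cells sorted singly from the spinal cord of mice of the genotype GLAST-CreERT2;R26R-tdTomato;Pdgfrb-eGFP, which all 4 groups share. EGFP marks cells in which the *Pdgfrb* reporter is active, which covers fibroblasts, pericytes and smooth muscle cells of vessels (vSMCs). tdTomato marks the cells, and any progeny, in which the tamoxifen-dependent Cre driven by GLAST (*Slc1a3*) was active when tamoxifen was given. The groups were tdTomato+EGFP+ and tdTomato-EGFP+ cells, called tdTomato+ and tdTomato- below, from uninjured cord and from the dissected lesion segment at 3 days after a complete crush. The labels give female for every cell, whereas the study's reporting form names both sexes for sequencing. The outer meningeal layers were removed before dissociation. The labels give 3 days while the series text gives 5, and the labels were followed. Each sequenced sample is 1 cell and no label names an animal, so each group is 1 sample, and the differences below have no replicate check and no test.

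After filtering, 468 cells remained, of 502 that passed the limits on quality. Plates 209 and 213 held 65 and 72 uninjured tdTomato+ and 46 and 60 uninjured tdTomato- cells, and plates 211 and 215 held 88 and 34 injured tdTomato+ and 58 and 45 injured tdTomato- cells, with group medians of 204006 to 271661 counts per cell. The 34 injured tdTomato+ cells of plate 215 had a median of only 14770 counts, and plate 211 held 94.6% of the counts of that group. *Slc1a3* was at 212, 31.5, 207 and 10.7 CPM (counts in 1000000 counts of the group) in uninjured tdTomato+, uninjured tdTomato-, injured tdTomato+ and injured tdTomato- cells, and *Pdgfrb* at 1503, 1881, 1213 and 2491 CPM. The summed level of 9 pericyte markers was 11327, 12526, 696 and 11487 CPM in the same order, and none of the 9 was at 0 in any group. The summed level of 9 perivascular fibroblast markers was 3664, 2075, 11587 and 7391 CPM, that of 6 cycling markers 12.9, 7.03, 1216 and 674 CPM and that of 6 endothelial markers 4215, 4503, 433 and 1797 CPM, again with none at 0. In tdTomato+ cells the higher perivascular fibroblast sum at 3 days came mainly from collagen genes. Uninjured and at 3 days, *Col1a1* was at 634.9 and 3220 CPM, *Col1a2* at 762.4 and 2432 CPM and *Col3a1* at 762.7 and 4770 CPM. *Pdgfra*, *Fbln1* and *Mfap5* rose less, while *Slc6a13* (457.4 and 73.55 CPM), *Islr* (375.5 and 252.3 CPM) and *Pi16* (125.9 and 38.13 CPM) were lower. *Pi16* was not lower in every pair of plates. Summed levels were 934, 2992, 1360.4 and 2602 CPM for 6 vSMC markers, 829, 858, 3763 and 3294 CPM for 7 stromal fibroblast markers and 72.9, 163, 722 and 682 CPM for 6 arachnoid or dural markers, of which *Slc22a6* was at 0 in 3 groups. The arachnoid or dural sums of injured tdTomato+ and tdTomato- cells came from different genes. *Aldh1a2* was at 671 and 171 CPM in that order. *Slc47a1* (1.19 and 258 CPM), *Crabp2* (1.19 and 140 CPM), *Cldn11* (46.2 and 75.4 CPM) and *Dpp4* (2.79 and 37.9 CPM) were higher in tdTomato- cells. Markers of astrocytes (9.24 to 299 CPM over the groups), the oligodendrocyte lineage (2.31 to 71 CPM) and immune cells (17.3 to 64.9 CPM) were also found, with up to 2 of the 6 oligodendrocyte markers at 0. The part of these shifts in the results was not tested, and fewer cells of a type and less RNA per cell cannot be told apart in sums over a group.

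Most of the genes lie next to a relative. On GRCm38.p6, *Dcn* (chr10:97479500-97518163) and *Lum* (chr10:97565501-97572703) are 47.3 kb apart, with their relatives *Kera* and *Epyc* beyond *Lum*. *Aspn* (chr13:49544443-49567565), *Omd* (chr13:49582462-49592612) and *Ogn* (chr13:49608015-49624501) follow each other at distances of 14.9 and 15.4 kb, next to the related gene *Ecm2*. *Prelp* (chr1:133910304-133930102) and *Fmod* (chr1:134037254-134048280) are 107.2 kb apart, and *Bgn* (chrX:73483601-73495936) has no relative beside it. Promoter windows of 250 bases before the start were read from RefSeq (GRCm38.p6) for the 6 members with an entry, *Fmod*, *Bgn*, *Aspn*, *Ogn*, *Prelp* and *Omd*. Those of the 3 neighbours *Aspn* (chr13:49544193-49544442), *Omd* (chr13:49582212-49582461) and *Ogn* (chr13:49607765-49608014) are shown beside that of *Bgn* (chrX:73483351-73483600), because the neighbours were called lower and *Bgn* higher in injured tdTomato+ cells. All 4 genes are on the plus strand, the sequences run 5′ to 3′, and capitals mark matches on either strand to TATAAA or GGAATG or CCAAT.
Aspn: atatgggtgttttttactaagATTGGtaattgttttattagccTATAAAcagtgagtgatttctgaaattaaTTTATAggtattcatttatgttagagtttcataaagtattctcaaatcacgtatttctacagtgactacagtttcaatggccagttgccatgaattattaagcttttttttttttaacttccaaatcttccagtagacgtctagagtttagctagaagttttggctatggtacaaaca
Omd: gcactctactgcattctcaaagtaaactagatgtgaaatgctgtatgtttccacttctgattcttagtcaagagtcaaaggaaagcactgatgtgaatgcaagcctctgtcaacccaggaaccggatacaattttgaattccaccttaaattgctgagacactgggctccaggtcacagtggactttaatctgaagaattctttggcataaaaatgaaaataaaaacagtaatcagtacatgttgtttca
Ogn: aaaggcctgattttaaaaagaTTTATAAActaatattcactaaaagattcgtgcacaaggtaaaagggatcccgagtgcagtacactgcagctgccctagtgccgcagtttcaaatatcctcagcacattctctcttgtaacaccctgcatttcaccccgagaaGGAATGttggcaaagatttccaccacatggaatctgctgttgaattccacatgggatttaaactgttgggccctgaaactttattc
Bgn: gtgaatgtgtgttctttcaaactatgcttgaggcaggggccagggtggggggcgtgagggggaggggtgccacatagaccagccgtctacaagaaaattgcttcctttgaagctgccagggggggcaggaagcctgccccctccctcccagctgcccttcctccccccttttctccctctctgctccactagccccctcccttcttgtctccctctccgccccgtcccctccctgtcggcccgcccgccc

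G and C made up 30% of the *Aspn* window, 38.4% of *Omd*, 42% of *Ogn* and 64.4% of *Bgn*, which put them at percentiles 1.47, 9.05, 15.9 and 81.6 of 32851 windows of that length, whose median was 52.4%. The windows of *Fmod* (51.2%) and *Prelp* (55.6%) lay near that median, the *Prelp* window belonging to a start inside the RefSeq interval of the gene. TATAAA, the sequence of a TATA box, matched at positions -207 and -178 of *Aspn*, counted from the start, and at the overlapping positions -229 and -227 of *Ogn*, and occurs in 12.4% of all windows. Whether any of these matches works as a TATA box was not tested. GGAATG, the core bound by TEAD factors, matched in *Ogn* alone at -86 (12.6% of windows), and CCAAT, bound by NF-Y, in *Aspn* at -229 and *Prelp* at -15 (33.9%). TGANTCA, bound by AP-1 (6.75% of windows), and the CArG box of SRF (1.47%) were in none of the 6 windows.

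Levels were compared between genes per kilobase of merged exons. *Dcn* stood highest of the 8 genes in all 4 groups, at 587, 227, 4322 and 1286 CPM per kilobase in uninjured tdTomato+, uninjured tdTomato-, injured tdTomato+ and injured tdTomato- cells. *Bgn* (253) and *Lum* (168) came next in uninjured tdTomato+ cells, and *Aspn* (166), *Bgn* (149.5) and *Ogn* (117.1 CPM per kilobase) in uninjured tdTomato- cells. After injury *Lum* (1025) followed *Dcn* in tdTomato+ cells and *Bgn* (583 CPM per kilobase) did so in tdTomato- cells. *Dcn* alone made up 43.9%, 31.3%, 70.6% and 59.2% of the length-scaled sum of the 8 genes, and *Aspn* 6.77%, 22.9%, 0.0176% and 3.28%. *Aspn* (90.4), *Ogn* (85.8) and *Fmod* (80.7 CPM per kilobase) were neighbours in the order of uninjured tdTomato+ cells and differed by less than the 2 plates of *Aspn* did. The sources do not say whether counts are reads or unique molecules, and the order assumes that counts grow with length.

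**Figure D1:**
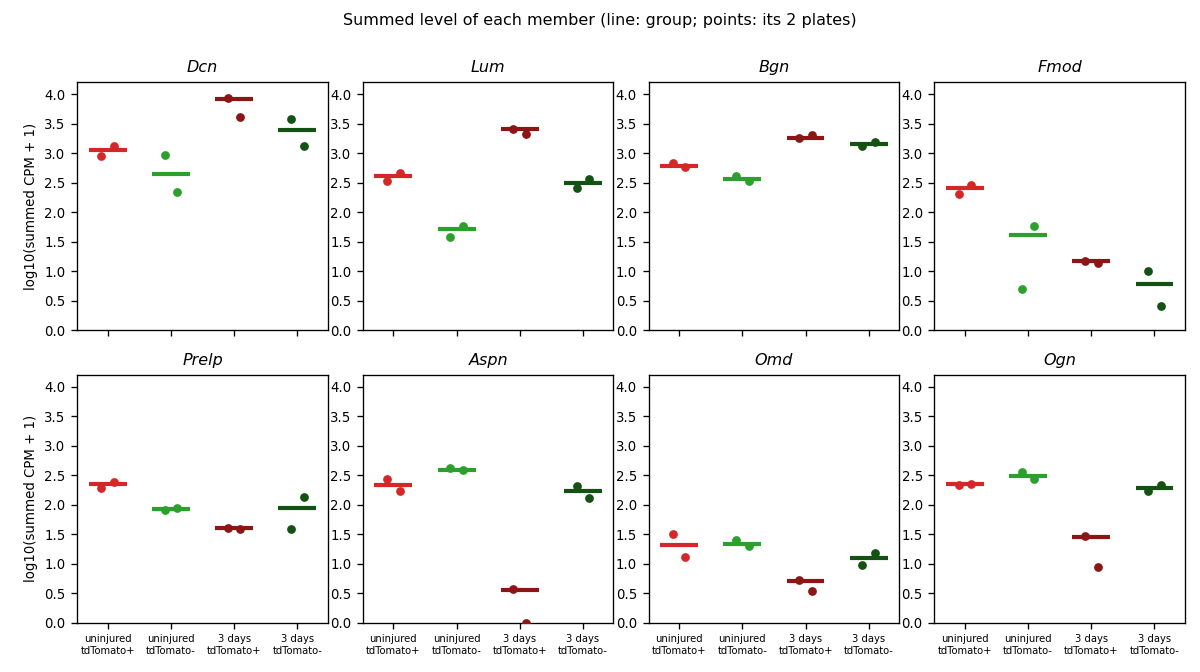
Summed level of each of the 8 genes on the scale log10(CPM + 1) in the 4 groups, with lines for group sums and points for the 2 plates of each group. *Dcn*, *Lum* and *Bgn* are higher at 3 days in both sorted populations, and *Prelp*, *Aspn*, *Omd* and *Ogn* are lowest in injured tdTomato+ cells.

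*Dcn* encodes decorin, which coats collagen fibrils and binds TGF-β. Over the cells with 20000 counts or more, the lowest, median and highest cell were at 0, 20.9 and 26772 CPM in uninjured tdTomato+ cells, at 0, 0 and 14496 CPM in uninjured tdTomato- cells, at 9.56, 5478 and 48842 CPM in injured tdTomato+ cells and at 0, 819 and 33157 CPM in injured tdTomato- cells. The uninjured groups held a few very high cells among many near 0, most injured cells were high, and the ranges overlapped. Summed over the group, *Dcn* was at 1139 (1128 to 1149), 440.0 (432 to 448), 8381 (8349 to 8413) and 2494 (2475 to 2513) CPM in the same order, where the brackets are exact 95% Poisson intervals that cover counting error only. The plates spread further, at 877 and 1327 CPM in uninjured tdTomato+ and 909 and 218 CPM in uninjured tdTomato- cells. With each cell thinned to 20000 counts, 45.7% (36.8 to 54.7), 20.7% (12.9 to 30.4), 99% (94.6 to 99.98) and 84.3% (75.8 to 90.8) of cells had a count, with exact 95% binomial intervals in brackets. Without thinning the shares were 75.9%, 36.8%, 98.4% and 94.2%. In the vSMC-like cluster described below, at a median of 202530 counts per cell, the thinned share was 5.56% (0.141 to 27.3), or 1 of 18 cells. It was taken as background, and its interval overlaps that of uninjured tdTomato- cells.

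*Bgn* encodes biglycan, the closest relative of decorin and a ligand of the Toll-like receptors encoded by *Tlr2* and *Tlr4*. Its lowest, median and highest cells were at 0, 321 and 3643 CPM in uninjured tdTomato+ cells, at 0, 177 and 2184 CPM in uninjured tdTomato- cells, at 176, 1552 and 6230.3 CPM in injured tdTomato+ cells and at 57.9, 1223 and 5237 CPM in injured tdTomato- cells. Every injured cell of this depth had *Bgn* while some uninjured cells had none, and the ranges overlapped. The sums were 613 (605 to 621), 362 (355 to 369), 1811 (1796 to 1826) and 1411 (1396 to 1425) CPM, and the plates were at 669 and 573, 414 and 337, 1800 and 1999.8, and 1293 and 1517 CPM. *Bgn* was spread over many cells, the top 10% of cells holding 47.7%, 47.1%, 31.4% and 29.04% of its counts, against 97.7% of the *Fmod* counts of uninjured tdTomato+ cells. Thinned shares of cells with a count were 85.8%, 79.3%, 100% and 99.02%, and unthinned ones 89.8%, 84.9%, 99.2% and 100%.

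*Aspn* encodes asporin, which has an aspartate-rich stretch in place of a chain attachment site and binds collagen and TGF-β. Its lowest, median and highest cells were at 0, 131.9 and 1766 CPM in uninjured tdTomato+ cells, at 0, 211 and 2117 CPM in uninjured tdTomato- cells, at 0, 0 and 114.04 CPM in injured tdTomato+ cells and at 0, 5.47 and 2379 CPM in injured tdTomato- cells. No injured tdTomato+ cell of this depth reached the median of uninjured tdTomato+ cells. The sums were 213 (208 to 218), 391 (383 to 398), 2.54 (2.01 to 3.16) and 168 (163 to 173) CPM. In injured tdTomato+ cells plate 211 gave 2.68 CPM, plate 215 gave no count, which allows up to 1.79 CPM, and 1 cell held 53.2% of the counts. The plates of the other 3 groups were at 273 and 169.6, 413 and 380.1, and 208 and 131.1 CPM. Thinned shares were 55.1% (46.04 to 63.95), 73.9% (63.7 to 82.5), 4% (1.10 to 9.93) and 39.2% (29.7 to 49.4), and unthinned ones 59.9%, 72.6%, 12.3% and 52.4%.

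*Lum* encodes lumican, which regulates the growth of collagen fibrils and is best known from the cornea. The lowest, median and highest cells were at 0, 0 and 5802 CPM in uninjured tdTomato+ cells, at 0, 0 and 1286 CPM in uninjured tdTomato- cells, at 0, 1771 and 11074 CPM in injured tdTomato+ cells and at 0, 0 and 4122 CPM in injured tdTomato- cells. Injured tdTomato+ cells were the only group in which the median cell had *Lum*. The sums were 412 (405 to 418), 50.6 (47.97 to 53.4), 2508 (2490.3 to 2526) and 307 (300.5 to 314) CPM, and the plates were at 339 and 465, 36.6 and 57.3, 2529.6 and 2127, and 254 and 355 CPM. In uninjured tdTomato- cells 5 cells had a count and 1 cell held 50.7% of the counts. Thinned shares were 20.5%, 5.43%, 92% and 35.3%, and unthinned ones 29.9%, 4.72%, 95.1% and 45.6%. The thinned share in cluster 2, which carries pericyte and endothelial markers, was 0.893%. In the vSMC-like cluster it was 5.56% (0.141 to 27.3), or 1 of 18 cells, near the share of uninjured tdTomato- cells.

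*Fmod* encodes fibromodulin, which shares a collagen binding site with lumican. The lowest and median cells were at 0 in all 4 groups, and the highest at 4454, 2800.2, 538 and 215 CPM. The sums were 252 (247 to 257), 39.8 (37.4 to 42.2), 13.7 (12.4 to 15.05) and 5.15 (4.31 to 6.10) CPM, and the plates were at 204 and 286, 4.05 and 56.7, 13.7 and 12.5, and 9.10 and 1.56 CPM. In uninjured tdTomato- cells 1 cell held 71.1% of the counts. Thinned shares were 14.2% (8.62 to 21.5), 3.26% (0.678 to 9.24), 11% (5.62 to 18.8) and 4.90% (1.61 to 11.1), with overlapping intervals for uninjured and injured tdTomato+ cells, and unthinned shares were 21.2%, 4.72%, 23.8% and 13.6%. In cluster 2 no thinned cell had a count, which allows a share of up to 2.68%. In the vSMC-like cluster 2 of 18 cells had one, or 11.1% (1.38 to 34.7), above the shares of both tdTomato- groups.

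*Prelp* encodes a protein that binds heparan sulfate and collagen and can link basement membranes to the matrix around them. The sums were 222 (217 to 227), 84.8 (81.3 to 88.3), 39.6 (37.4 to 41.8) and 87.6 (84.03 to 91.3) CPM, and the plates were at 190.0 and 245, 81.3 and 86.4, 39.7 and 36.97, and 37.8 and 132.9 CPM. Among cells with 20000 counts or more, the lowest were at 0, the medians at 2.02, 0, 0 and 0 and the highest at 1478, 849.5, 427 and 733 CPM, so that all groups overlapped. A shallow uninjured tdTomato- cell with 12 *Prelp* counts among 332 stood at 36145 CPM, and with equal weight for each cell the group's mean was 423. Thinned shares were 37.01%, 32.6%, 21% and 24.5%, and unthinned ones 48.9%, 42.5%, 36.1% and 36.9%.

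*Omd* encodes osteomodulin, a keratan sulfate proteoglycan of mineralised matrix. The sums were 19.997 (18.6 to 21.5), 20.7 (18.996 to 22.5), 4.11 (3.43 to 4.89) and 11.6 (10.3 to 13.02) CPM, the plates were at 31.2 and 11.9, 24.7 and 18.8, 4.21 and 2.38, and 8.52 and 14.4 CPM, and the highest cells reached 241, 583, 132.5 and 292 CPM over medians of 0. Its neighbour *Ogn* encodes osteoglycin, which takes part in collagen fibril formation. *Ogn* was at 220.1 (215 to 225), 301 (294 to 307), 27.8 (25.9 to 29.7) and 193 (188 to 199) CPM, with plates at 218 and 222, 354 and 275, 28.9 and 7.75, and 172 and 212 CPM. The highest *Ogn* cells reached 2959, 3441, 643 and 4706 CPM over medians of 0, so that the highest cell was an injured tdTomato- cell and all groups overlapped. Thinned shares were 34.6%, 39.1%, 21% and 26.5% for *Ogn* and 14.2%, 8.70%, 4% and 7.84% for *Omd*, and unthinned ones 37.2%, 42.5%, 33.6% and 43.7% and 16.8%, 10.4%, 18.9% and 19.4%.

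In uninjured cord the sorts were compared, a comparison that asks how GLAST-traced perivascular cells differ from the other *Pdgfrb* reporter cells. A gene was called where the difference of log2(CPM + 1) between the sums was 1 or more in size and had the same sign on both plates, among genes at 10 CPM or more in the higher group. *Lum*, *Fmod* and *Prelp*, all of class II, were called higher in tdTomato+ cells and 0 of 8 members lower, while 4.31% of 11198 genes were called higher and 3.61% lower. On the log2 scale *Lum* was higher by 3.00 (3.00 to 3.18 on the plates), *Fmod* by 2.63 (2.32 to 5.34) and *Prelp* by 1.38 (1.22 to 1.49). The *Prelp* difference turned to -1.15 with cells weighted equally, which includes the shallow cell above, and to -2.34 in cells with at most 1200 genes, where *Fmod* was at 0.00. *Dcn* differed by 1.37 in the sums, ranged over -0.05 to 2.60 on the plates and was not called, though it was without plate 209 (2.60) and without the top cell of each group (1.53). *Bgn* (0.76, 0.69 to 0.76), *Aspn* (-0.87, -1.16 to -0.60), *Ogn* (-0.45, -0.70 to -0.31) and *Omd* (-0.05, -0.62 to 0.33) were under the threshold, *Aspn* and *Ogn* being lower in tdTomato+ cells on both plates and *Aspn* being called lower without plate 209 (-1.16). All 8 members passed the floor in this and the other comparisons, and their median difference here was 1.07 against 0.01 over all genes tested.

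Among injured cells, with the log2 difference and then its range over plates in brackets, *Lum* (3.03, 2.58 to 3.31), *Dcn* (1.75, 1.18 to 1.64) and *Fmod* (1.26, 0.55 to 2.40) were called higher in tdTomato+ than in tdTomato- cells, and *Aspn* (-5.58, -7.05 to -5.83), *Ogn* (-2.76, -4.61 to -2.53) and *Omd* (-1.30, -2.19 to -0.87) lower. Over 10631 genes tested, 4.31% were called higher and 17.9% lower. A sum can lie outside its plate values because the plates carry unequal shares of the 2 populations. The calls of *Lum*, *Dcn*, *Aspn* and *Ogn* stood under all alternatives that gave a value, whereas without plate 215 *Fmod* was at 0.55 and *Omd* at -0.87, both under the threshold. *Omd* also came under it with TMM (-0.995) and DESeq2 factors (-0.87). Both lost their call with a pseudocount of 10 CPM (0.65 and -0.62) and without the top cell of each group (1.76 and -0.53), and *Omd* with cells weighted equally (-1.01). *Prelp* (-1.13, -1.82 to 0.07) had both signs on the plates and was called lower without plate 211 (-1.82) or without the top cells (-1.14), and *Bgn* (0.36, 0.40 to 0.48) was under the threshold. The member median was -0.38 against -0.32 over all genes tested. The median of all genes tested shifted by 0.38 with TMM factors of edgeR in place of total counts and by 0.54 with DESeq2 size factors, and the genes called became 951 higher and 1256 lower, or 1304 and 1066, in place of 458 and 1908.

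The injury comparison was made within each sorted population. Uninjured cells lie on plates 209 and 213 and injured cells on plates 211 and 215, so injury and plate cannot be told apart, and a call required 1 sign in all 4 pairs of an injured with an uninjured plate. In tdTomato+ cells 3 members were called higher at 3 days (*Dcn*, *Lum* and *Bgn*) and 5 lower (*Fmod*, *Prelp*, *Aspn*, *Omd* and *Ogn*), so that all 8 were called. Over 11429 genes tested, 10.8% were called higher and 34.3% lower. *Dcn* was higher by 2.88 on the log2 scale (1.62 to 3.30 over the plate pairs), or 7.36-fold, *Lum* by 2.60 (2.19 to 2.90) and *Bgn* by 1.56 (1.43 to 1.80). Among those called lower, *Aspn* differed by -5.92 (-8.10 to -5.53), *Fmod* by -4.11 (-4.41 to -3.80), *Ogn* by -2.94 (-4.67 to -2.87), *Prelp* by -2.46 (-2.70 to -2.23) and *Omd* by -2.04 (-3.25 to -1.31). The member median was -2.25 against -0.59 over all genes tested.

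Scaling moved this comparison more than the others. With TMM factors in place of total counts the median of all genes shifted by 0.71, and with DESeq2 size factors by 0.86, and the genes called became 2381 higher and 2158 lower, or 2734 and 1888, in place of 1238 and 3921. All 8 members kept their call under both, with *Omd* at -1.45 and -1.33 and *Bgn* at 2.24 and 2.38. Limited to cells with at most 1200 detected genes, which leaves 10 uninjured and 10 injured tdTomato+ cells, 0 members were called lower.

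In tdTomato- cells *Dcn*, *Bgn* and *Lum* were also called higher at 3 days and *Aspn* lower, against 9.52% of 11434 genes called higher and 17% lower. *Lum* was higher by 2.58 on the log2 scale (2.13 to 3.25 over the plate pairs), *Dcn* by 2.5 (0.53 to 4.12) and *Bgn* by 1.96 (1.64 to 2.17). *Aspn* (-1.21, -1.65 to -0.86) came under the threshold with TMM factors (-0.93), DESeq2 size factors (-0.97) and without plate 215 (-0.90). *Ogn* (-0.64, -1.04 to -0.37) and *Omd* (-0.78, -1.43 to -0.36) were lower in all 4 plate pairs without reaching the threshold in the sums, and *Omd* reached it without plate 213 (-1.02) or 215 (-1.19), with cells weighted equally (-1.13) and without the top cell of each group (-1.61). *Fmod* (-2.73, -4.49 to 1.00) and *Prelp* (0.05, -1.17 to 0.70) had both signs among the pairs. *Fmod* was called lower without plate 209 (-3.23) or 211 (-3.99) or without the top cells (-2.16), and *Prelp* without plate 215 (-1.15). The member median of -0.29 lay near that of all genes tested, -0.20. With TMM and DESeq2 factors that median shifted by 0.30 and 0.26, and the genes called became 1607 higher and 1241 lower, or 1484 and 1319, in place of 1089 and 1941.

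**Figure D2:**
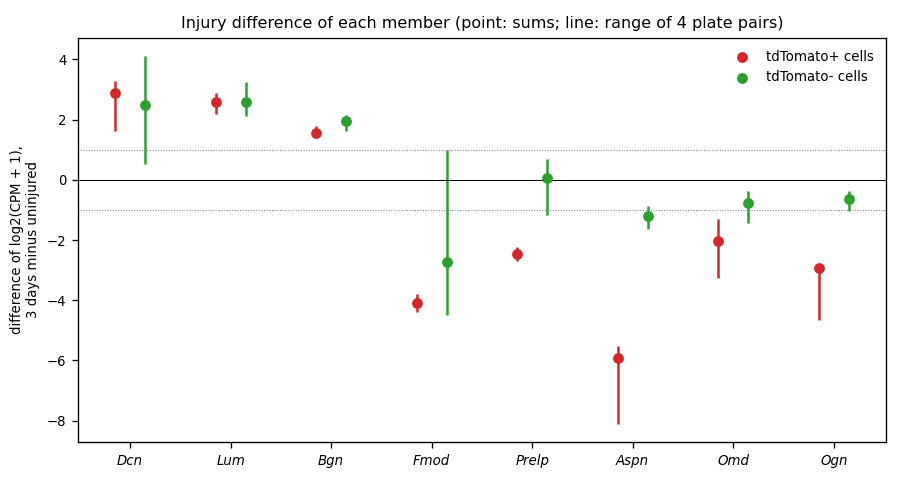
Injury difference of log2(CPM + 1), 3 days minus uninjured, for the 8 genes in tdTomato+ (red) and tdTomato- (green) cells, with points for the sums, lines for the range over 4 plate pairs and dotted lines at the threshold of 1. *Dcn*, *Lum* and *Bgn* lie above 0 in both populations, and *Prelp*, *Aspn*, *Omd* and *Ogn* lie lower in tdTomato+ than in tdTomato- cells.

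The injury difference of tdTomato+ cells minus that of tdTomato- cells was called lower for *Aspn* (-4.70, -6.45 to -4.67), *Prelp* (-2.51, -3.31 to -1.14), *Ogn* (-2.31, -4.30 to -1.83) and *Omd* (-1.26, -2.52 to -0.25), and higher for 0 of 8 members. Over 12081 genes tested, 20.6% were called lower and 4.57% higher. The calls of *Aspn* and *Ogn* stood under all alternatives that gave a value. *Prelp* turned to 0.30 with cells weighted equally, and *Omd* came under the threshold with TMM (-0.94) and DESeq2 factors (-0.78), without plate 209 (-0.69) and without plate 215 (-0.82). *Dcn* (0.38, -1.42 to 1.69), *Lum* (0.03, -0.60 to 0.31) and *Fmod* (-1.38, -4.80 to 0.09) had both signs among the plate pairs, and *Bgn* (-0.40, -0.37 to -0.21) was under the threshold. Without plate 213 *Dcn* was called higher, at 1.80, and *Fmod* was called lower without plate 213 (-4.09) or 215 (-2.09). It was also called lower with cells weighted equally (-1.30), in cells with 20000 counts or more (-1.39), with a pseudocount of 10 CPM (-1.75) and without the top cell of each group (-2.32), so its missing call depends on these choices. *Omd* lost its call with cells weighted equally (-0.75), with that pseudocount (-0.58) and without the top cells (-0.57). Both scalings also moved the genes called, to 1051 higher and 1630 lower with TMM and 1439 and 1318 with DESeq2 factors, in place of 552 and 2484, with median shifts of 0.39 and 0.56.

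Cells of all groups were clustered together, with the 8 genes and their relatives left out of the genes used. A marker counts as raised in a cluster where its log2(CPM + 1) was 0.5 or more above that of all other cells and at least 50% of the cluster had a count. Cluster 4 (71 cells) raised 9 of 9 perivascular fibroblast and 3 of 7 stromal fibroblast markers. It was led by *Itgbl1*, *Scara5* and *Pi16*, and is called perivascular fibroblast-like. Cluster 5 (48 cells, 47 of them injured tdTomato-) raised 7 of 9 pericyte, 4 of 7 stromal fibroblast and 2 of 6 vSMC markers. It was led by *Ednrb*, *Avpr1a* and *Oacyl*, and is called pericyte-like, although a cluster of nearly 1 group may be that group and not a type. Cluster 6 (18 cells) raised 5 of 6 vSMC markers, was led by *Susd5*, *Pln* and *Pdlim3*, and is called vSMC-like. The other clusters stay unnamed. Cluster 1 held 100 injured tdTomato+, 17 injured tdTomato- and 10 uninjured cells of each sort. It raised 6 of 6 cycling, 4 of 9 perivascular fibroblast, 4 of 7 stromal fibroblast and 2 of 6 vSMC markers and was led by *Bcat1*, *Tfpi2* and *Hmmr*. Of its uninjured cells, only 1 of each sort had 20000 counts or more. Clusters 2 (61 uninjured tdTomato+, 51 uninjured tdTomato- and 1 and 5 injured cells) and 3 (76 cells) raised 8 and 9 of 9 pericyte markers together with 6 of 6 endothelial ones, and were led by *Slc38a5* and *Bmx*.

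The members took different clusters. *Fmod*, *Prelp* and *Omd* had 93.9%, 73.4% and 72.2% of their counts in the perivascular fibroblast-like cluster, where they were at 521, 515 and 62.1 CPM. *Dcn* and *Lum* were divided between that cluster (9504 and 2051 CPM) and cluster 1 (4952 and 1793 CPM), and were at 2261 and 405 CPM in the pericyte-like cluster. Of the pericyte-like cells, 16 of 47 had a thinned *Lum* count, and the 1 tdTomato+ cell held 36.5% of the *Lum* counts. In the vSMC-like cluster *Dcn* was at 3.04 CPM and *Lum* at 0.651 CPM. With all groups summed, *Aspn* and *Ogn* were highest there, at 979 and 941 CPM, with a thinned count in 17 and 13 of its 18 cells. *Aspn* was also at 201 and 294 CPM in clusters 2 and 3 and at 3.13 CPM in cluster 1, and *Ogn* at 649.7 CPM in the perivascular fibroblast-like cluster and 8.17 CPM in cluster 1. Uninjured tdTomato- cells made up 14 of the 18 vSMC-like cells. Within this group, *Ogn* was at 1007.5 CPM in the vSMC-like and 1446 CPM in the perivascular fibroblast-like cluster. *Aspn* was at 1089.5 and 1024 CPM in the same order. In uninjured tdTomato+ cells both genes were higher in the vSMC-like cluster, which held 3 of these cells. *Bgn* was found in every cluster, from 252 CPM in cluster 2 to 1788 CPM in cluster 4.

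**Figure D3:**
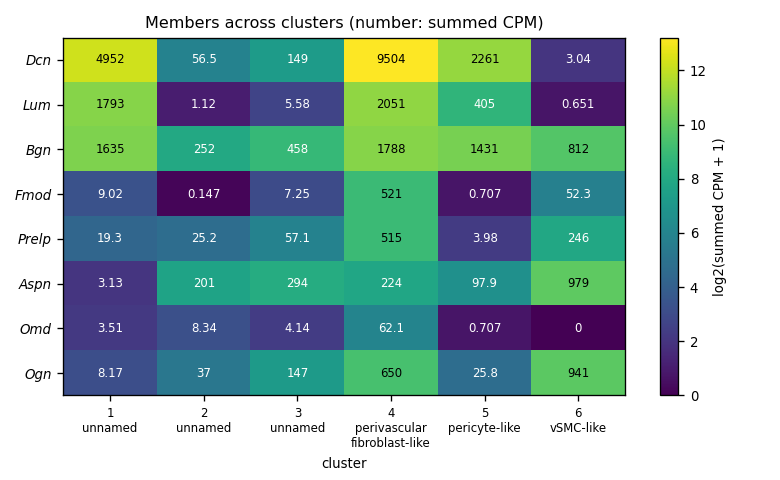
Summed level of the 8 genes in the 6 clusters, with colour on the scale log2(CPM + 1) and the level in CPM in each field. With all groups summed, *Dcn* and *Bgn* are high in clusters 1, 4 and 5 and *Lum* in clusters 1 and 4. *Fmod*, *Prelp* and *Omd* are highest in cluster 4, and *Aspn* and *Ogn* are highest in cluster 6.

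The share of cells in each cluster differed between the groups, and these shares stand beside the sums above. Cluster 2 held 44.5%, 48.1%, 0.820% and 4.85% of uninjured tdTomato+, uninjured tdTomato-, injured tdTomato+ and injured tdTomato- cells, and cluster 3 held 27.01%, 21.7%, 1.64% and 13.6%. Of the *Aspn* counts of uninjured tdTomato+ cells, 47.3% lay in cluster 2 and 38.7% in cluster 3. Cluster 1 held 81.97% of injured tdTomato+ cells, with 58.2% of their *Dcn*, 71.4% of their *Lum* and 80.2% of their *Bgn* counts. The perivascular fibroblast-like cluster held 18.98% of uninjured tdTomato+ cells, with 95.1% of their *Dcn*, 99.2% of their *Lum* and 98.4% of their *Fmod* counts. In injured tdTomato- cells it held 53.9% of *Dcn* counts and the pericyte-like cluster 35.7%. The part of the shift between clusters in the group differences was not tested.

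Within the perivascular fibroblast-like cluster, the members were compared over 26 uninjured tdTomato+, 8 uninjured tdTomato-, 18 injured tdTomato+ and 19 injured tdTomato- cells. In tdTomato+ cells *Dcn* was at 4711 CPM uninjured and 23796 CPM at 3 days, a log2 difference of 2.34 (0.49 to 2.42 over the plate pairs). *Lum* was at 1778 and 4641 CPM (1.38, 0.77 to 1.45) and *Bgn* at 1453 and 2437 CPM (0.75, 0.05 to 1.19). These were higher on both injured plates than on either uninjured one. *Fmod* was at 1078 and 53.9 CPM (-4.30, -4.55 to -4.26), with 1118 and 1059 CPM on the uninjured plates and 54.4 and 46.8 CPM on the injured ones. *Prelp* was at 800.2 and 166 CPM (-2.26, -3.45 to -2.07), *Omd* at 58.6 and 10.6 CPM (-2.37, -6.92 to -1.28) and *Ogn* at 575 and 142.1 CPM (-2.01, -4.29 to -1.84). All 4 were lower in every plate pair, while *Aspn* (-1.20, -5.12 to 3.04) had both signs. After thinning, *Prelp* had a count in 26 of 26 uninjured and 14 of 16 injured tdTomato+ cells of the cluster, *Ogn* in 24 of 26 and 11 of 16, and *Fmod* in 15 of 26 and 3 of 16.

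In tdTomato- cells of the cluster, the injury differences of *Dcn* (0.30, -1.19 to 1.57), *Lum* (0.27, -0.56 to 1.61) and *Prelp* (-0.25, -2.00 to 1.25) had both signs among the plate pairs. *Omd* (223 and 48.5 CPM, -2.18), *Aspn* (1024 and 442 CPM, -1.21) and *Ogn* (1446 and 906 CPM, -0.67) were lower in all 4 pairs, and *Bgn* (1187 and 2044 CPM, 0.78) was higher. *Fmod* rested on 1 cell, which held all of its counts in the uninjured tdTomato- cells. These values come from 3 to 16 cells per plate and group. At resolution 0.3 the cluster merged into one of 208 cells, where the *Dcn* difference was 0.85 in tdTomato+ and -0.14 in tdTomato- cells. All 16 injury differences of the cluster, over members and sorts, moved there by more than counting error. At resolution 0.8, 7 moved and 9 did not. Without regressing out genes detected and mitochondrial and ribosomal shares, 9 moved and 7 did not. The values within the cluster therefore depend on the clustering.

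The uninjured cells of this cluster differed by sort in the members they carried, over 26 tdTomato+ and only 8 tdTomato- cells. The study's methods describe fibroblasts with *Slc1a3* and *Pdgfra* among tdTomato- cells as GLAST+ cells that had not recombined, and left them out. No such cells were removed here, so the tdTomato- cells of this cluster may include them, and the sorts need not be separate lineages. *Aspn* had a thinned count in 1 of 26 tdTomato+ and 7 of 8 tdTomato- cells, at 22.9 and 1024 CPM, and 1 cell held 99.5% of the former. *Omd* had a count in 9 of 26 and 7 of 8 cells, at 58.6 and 223 CPM. *Lum* went the other way, with 24 of 26 and 4 of 8 cells at 1778 and 663 CPM, and *Fmod* had 15 of 26 and 1 of 8 cells at 1078 and 371 CPM. On plates 209 and 213, *Lum* was at 1857.9 and 1739.7 CPM in tdTomato+ and at 299.69 and 1042.1 CPM in tdTomato- cells. *Fmod* was at 1118.2 and 1058.5 CPM in tdTomato+ and at 0 and 757.9 CPM in tdTomato- cells. The tdTomato- values of these plates come from 5 and 3 cells. *Dcn* had a count in every cell of both sorts, at 4711 and 5558 CPM. At 3 days *Aspn* was found in 0 of 16 thinned tdTomato+ cells, which allows a share of up to 18.8%, and in 11 of 19 tdTomato- cells. With 1 sample per group and few cells, these differences were not tested.

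**Figure D4:**
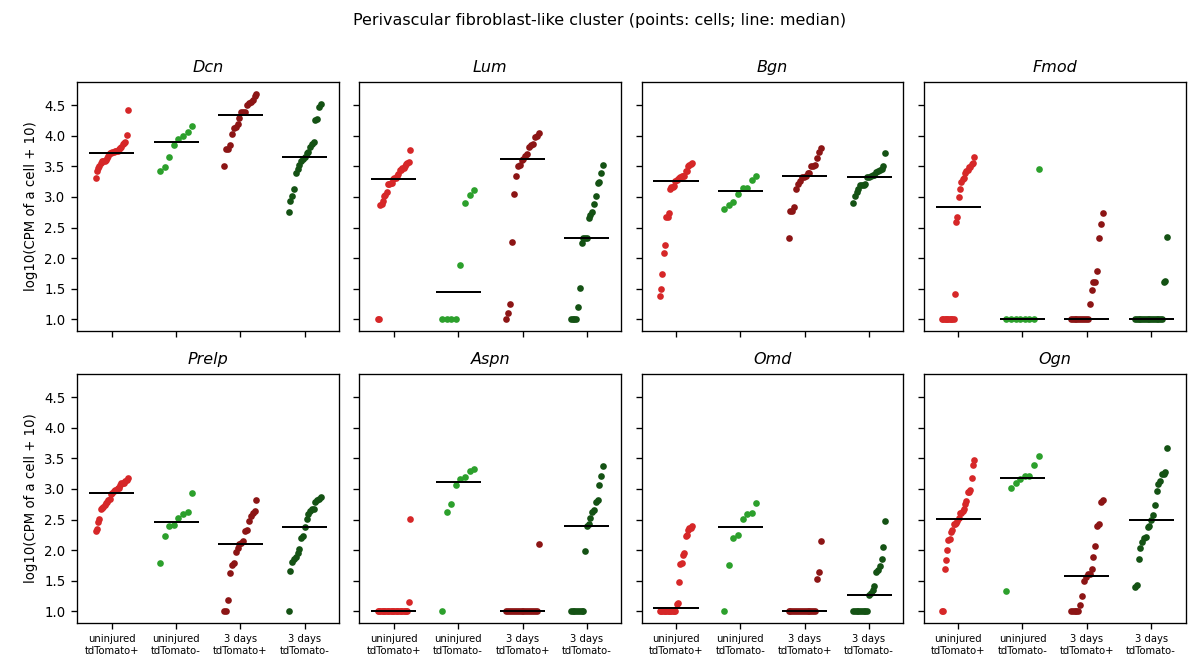
Level of the 8 genes in each cell of the perivascular fibroblast-like cluster, on the scale log10(CPM + 10), by group, with cells sorted by level and lines at medians. *Aspn* is at 0 in nearly all tdTomato+ cells and high in most uninjured tdTomato- cells, *Fmod* is high in many uninjured tdTomato+ cells and few others, and *Dcn* is present in every cell.

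After thinning, the median cell had a count of 3, 2, 3 and 3 of the 8 members in uninjured tdTomato+, uninjured tdTomato-, injured tdTomato+ and injured tdTomato- cells. Cells with 4 or more members made up 30.7% (22.8 to 39.5), 22.8% (14.7 to 32.8), 38% (28.5 to 48.3) and 33.3% (24.3 to 43.4) of the groups, with overlapping exact 95% binomial intervals. In the perivascular fibroblast-like cluster the share was 94.2% (85.8 to 98.4), and in cluster 2 it was 2.68% (0.556 to 7.63). *Dcn* and *Lum* were found together in 92 of 100 injured and 24 uninjured tdTomato+ cells. *Lum* and *Aspn* shared 3 uninjured tdTomato+ cells, where 26 and 70 cells had a count of each. All 18 uninjured tdTomato+ cells with *Fmod* also had its neighbour *Prelp*, and 17 of them had *Ogn*. In injured tdTomato+ cells only 4 of 11 cells with *Fmod* had *Prelp* and 4 had *Ogn*. In tdTomato- cells *Prelp* was in 1 of 3 uninjured and 3 of 5 injured cells with *Fmod*, and *Ogn* in 3 and 3 of them.

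Correlations of ln(1 + counts per 10000) across the 421 cells of that depth are given as a description, since cells share groups, plates and depth. *Dcn* went with *Lum* (Pearson's r 0.772) and *Bgn* (0.654), and *Prelp* with its neighbour *Fmod* (0.523) and with *Ogn* (0.523). *Aspn* went against *Lum* (-0.406) and *Dcn* (-0.333), and had low values with its neighbours *Ogn* (0.275) and *Omd* (0.140). Among 12330 other genes, the 3 most like *Dcn* were *Col3a1* (0.828), *Col1a2* (0.803) and *Serpinf1* (0.801), and those most like *Lum* were *Tgfbi* (0.767), *Serpinf1* (0.758) and *Col1a1* (0.740). *Col3a1*, *Col1a2* and *Col1a1* encode chains of the fibrillar collagens that decorin and lumican bind. *Bgn* stood nearest to *Lgals1* (0.698), *Fstl1* (0.681) and *Col3a1* (0.673). *Fmod* stood nearest to *Mfap4* (0.745), *Cmbl* (0.739) and *Adh1* (0.727), and *Prelp* to *Gsn* (0.680), *Crispld2* (0.678) and *Serping1* (0.659). *Ogn* (*Clec3b* 0.574, *Timp2* 0.565 and *Gsn* 0.564) and *Omd* (*Clec3b* 0.550, *Fbln5* 0.526 and *Angptl1* 0.520) shared their nearest gene. *Aspn* had the lowest values, with *Fry* (0.465), *Plce1* (0.456) and *Rgs4* (0.439).

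Other genes of the pathway were described from lists, read against the share of all genes called in the same comparison. After injury these shares, given above, were 10.8% higher and 34.3% lower in tdTomato+ cells and 9.52% and 17% in tdTomato- cells. Of 10 collagens that SLRPs bind, 7 were called higher and 0 lower after injury in tdTomato+ cells and 10 higher in tdTomato- cells, with median log2 differences of 2.01 and 2.24. In the uninjured sort 4 were called higher in tdTomato+ cells and 1 lower, against 4.31% and 3.61% of all genes, with a median of 0.53. *Col1a1* was at 635, 253, 3220 and 1550 CPM in uninjured tdTomato+, uninjured tdTomato-, injured tdTomato+ and injured tdTomato- cells, and *Col3a1* at 763, 592, 4770 and 2915 CPM. Both are also on the list of perivascular fibroblast markers. Of 10 further SLRP genes, 4 passed the floor in each injury comparison. *Ecm2*, the neighbour of *Aspn*, was called lower in both populations (-4.39 and -1.61), with 507, 490.2, 23.2 and 159.6 CPM in the 4 groups. *Podn*, which encodes podocan, was called lower in tdTomato+ cells (47.1 and 11.02 CPM), and *Tsku*, which encodes tsukushi, higher in both (6.12 and 14.97 CPM in tdTomato+ and 1.12 and 14 CPM in tdTomato- cells). *Kera* and *Epyc*, the neighbours of *Lum*, stayed at 1.60 CPM or less.

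Of 22 enzymes that build chondroitin and dermatan sulfate chains, 18 passed the floor in tdTomato+ cells, with 1 called higher and 4 lower after injury and a median of -0.16. In tdTomato- cells 17 passed, with 2 higher and 1 lower and a median of 0.11. Of all genes, 10.8% and 34.3% were called in tdTomato+ and 9.52% and 17% in tdTomato- cells. The counts of the list are too few to tell from these shares. *Csgalnact1*, which starts chondroitin chains, was called higher in both (30.6 and 119.6 CPM in tdTomato+ and 50.1 and 117.8 CPM in tdTomato- cells), and the sulfotransferase gene *Chst3* lower in both (55.8 and 4.05 CPM in tdTomato+ and 25.5 and 11.1 CPM in tdTomato- cells). Of 9 enzymes of keratan sulfate and tyrosine sulfation, 3 of 6 tested were called lower in tdTomato+ cells and 2 of 7 in tdTomato- cells, and 0 higher, against 34.3% and 17% of all genes called lower, so few genes giving no result about the list. *B4galt4* and the tyrosine sulfotransferase gene *Tpst2* were called lower in both. Of 11 proteases and cofactors that act on propeptides or core proteins, 7 were tested in each population, with 3 called higher in tdTomato+ and 5 in tdTomato- cells and 0 lower, against 10.8% and 9.52% of all genes called higher and 34.3% and 17% lower. *Bmp1*, whose product cleaves the biglycan propeptide, was at 34.5, 67.2, 198 and 402 CPM in uninjured tdTomato+, uninjured tdTomato-, injured tdTomato+ and injured tdTomato- cells, and *Adamts4*, a proteoglycan protease, at 29.9, 17.3, 139.3 and 564 CPM.

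Of 11 receptors and growth factors that SLRPs bind, 8 were tested in tdTomato+ cells, with 1 called higher and 4 lower after injury, and 9 in tdTomato- cells, with 2 higher and 2 lower. These counts are read against the same shares of all genes, 10.8% higher and 34.3% lower in tdTomato+ and 9.52% and 17% in tdTomato- cells, and are too few to tell from them. *Cd44* was called higher in both populations (9.43 and 191 CPM in tdTomato+ and 9.37 and 125.5 CPM in tdTomato- cells). *Igf1r*, which encodes a receptor that decorin binds, was called lower in both (354 and 56.02 CPM in tdTomato+ and 345 and 106.9 CPM in tdTomato- cells). *Kdr*, a receptor gene of endothelial cells, was also called lower in both (338 and 9.54 CPM in tdTomato+ and 482 and 49.2 CPM in tdTomato- cells), beside the endothelial markers given above. The biglycan receptor gene *Tlr2* was at 7.62 CPM or less in every group, and *Tlr4* was called lower in tdTomato+ cells (25.2 and 9.80 CPM). Of 5 large chondroitin sulfate proteoglycans, 3 were tested in each population, with 0 called higher and 2 lower in tdTomato+ cells and 1 higher and 1 lower in tdTomato- cells, again too few to set against those shares. *Vcan*, which encodes versican, was at 118.8, 21.4, 198 and 44.4 CPM in uninjured tdTomato+, uninjured tdTomato-, injured tdTomato+ and injured tdTomato- cells, and *Cspg4*, also a pericyte marker, at 452, 694, 47.6 and 573 CPM.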

How the data were processed

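Single perivascular cells of 4 groups were sorted into plates and prepared with Smart-seq 3. The authors deposited counts per gene and cell as 1 matrix, with mm10 named in the submitters' processing notes; the aligner, the annotation and the nature of a count (read or unique molecule) are not given in the sources used here. Of its 1968 cell columns, 1465 match no labelled sample here and were not used, and the 503 others were mapped to labels by plate and well. Spike-in rows were left out.

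Cells were kept with at least 200 genes and under 20% mitochondrial counts, as the study's methods state. The methods also remove astrocytes and immune cells by *Gfap* and *Ptprc* and endothelial cells by high *Pecam1* with low *Pdgfrb*, without limits. The limits were set here, on the scale ln(1 + counts per 10000), and removed cells with *Gfap* or *Ptprc* above 1, or with *Pecam1* above 1 and above *Pdgfrb*. This left 502 cells before the marker limits, of which 34 were removed for *Pecam1* and 0 for *Gfap* or *Ptprc*, and 468 after them. The methods also state an upper limit of 1200 genes, which few of these cells meet and which was tried as an alternative. Cells were sorted 1 to a well and doublets were not called, so joined cells were not looked for. Clusters 2 and 3 raised pericyte markers together with 6 of 6 endothelial ones, and the source of this mixture was not tested. No pair of cell columns was identical (0 pairs). On plate 211, 214 genes at 10 CPM or more had no count on the other 3 plates, and 223 showed the reverse, while all 8 members had counts on every plate.

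Counts were summed per group and per plate and scaled to CPM by total counts, with exact Poisson intervals for sums and exact Clopper-Pearson intervals for shares at 95%. Differences are of log2(CPM + 1), which understates changes of low genes, and calls need a size of 1 or more, 1 sign over plates and 10 CPM in the higher group (in any group for the difference between the injury differences). Plates are technical, and the cells of a group are not replicates. For a count of 0, the limit is 3 counts. PCR products are not independent molecules where counts are reads. Clusters were made with Seurat 5.3.0 in R 4.3.3 (2000 variable genes, 20 components, resolution 0.5). TMM factors came from edgeR 4.0.16 and size factors from DESeq2 1.42.0, as alternatives of scale only, with no test. Exon lengths are from GENCODE M21 and gene positions and promoters from RefSeq on GRCm38.p6, the assembly that mm10 names. Sums, differences and calls were run on simulated plate sums drawn from a shared profile with known changes. That simulation left out differences between single cells, so it checks the working of the rule and not its errors on these data. The alternatives were other scalings, weights, cell filters, pseudocounts, floors, thinning depths (50000 counts and none) and cluster settings, and leaving out each plate or the top cell of each member. The members are named throughout, the 3 genes most like each are named by correlation, and genes of the pathway are named from lists. The members and lists were chosen with earlier results of these data known.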

Additional observations from a re-analysis of the deposited data

How the results depend on the processing

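Under the alternatives tried, *Prelp* was the one member with a called difference that changed sign. With CPM averaged over cells at equal weight, its sort difference in uninjured cord was -1.15 in place of 1.38, and its difference between the injury differences was 0.30 in place of -2.51. In cells with at most 1200 detected genes, its sort difference in uninjured cord was -2.34. That limit kept 10 uninjured tdTomato+, 13 uninjured tdTomato- and 10 injured tdTomato+ cells and no injured tdTomato- cell, so it gave no value for comparisons with the last group. Under it, members called higher in the uninjured sort went from 3 to 1, and members called lower after injury in tdTomato+ cells from 5 to 0. Members called lower after injury in tdTomato- cells went from 1 to 0 with TMM factors and to 0 with DESeq2 size factors, to 2 at equal weight of cells, to 2 without any 1 of the plates 209, 213, 211 and 215, and to 3 without the top cell of each member. Without plate 209, members called lower in the uninjured sort went from 0 to 1, *Aspn* at -1.16. Without plate 213, members called higher for the difference between the injury differences went from 0 to 1, *Dcn* at 1.80. The cause of these changes was not tested.

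Counts over all genes moved more. With a pseudocount of 10 CPM, the uninjured sort gave 185 genes called higher and 167 lower in place of 483 and 404, the sort at 3 days 296 and 1158 in place of 458 and 1908, the injury difference of tdTomato- cells 1176 lower in place of 1941, and the difference between the injury differences 317 and 1421 in place of 552 and 2484. With no floor they were 1272 higher and 931 lower in the uninjured sort, 5956 lower after injury in tdTomato+ and 3042 in tdTomato- cells, and 984 higher for the difference between the injury differences. TMM factors and DESeq2 size factors gave 951 and 1304 genes higher and 1256 and 1066 lower in the sort at 3 days, 1607 and 1484 higher and 1241 and 1319 lower after injury in tdTomato- cells, and 1051 and 1439 higher and 1630 and 1318 lower for the difference between the injury differences. In cells with at most 1200 genes, 198 genes were called higher in the uninjured sort, and 3528 higher and 159 lower after injury in tdTomato+ cells. Leaving out a plate, which loosens the rule on signs, gave up to 1042 genes higher and 936 lower in the uninjured sort, 944 higher in the sort at 3 days and 1047 higher for the difference between the injury differences. No analysis paired by animal was possible because no label names an animal and each group is 1 sample. The sorts were compared within each plate. The intervals cover counting error only, and the depth of the injured tdTomato+ cells of plate 215 limits what that plate can show.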
